A study of Mus musculus with 6 samples.

Results

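The genes described here are the NSUN family of RNA methyltransferases, Nsun2 to Nsun7 and Nop2, together with Alkbh1. They were taken by symbol, and all 8 were found among the 55421 gene IDs of the count tables. Islets came from C57BL/6 mice of WT genotype, in 3 libraries labelled vehicle and 3 labelled with the ligand insB:9-23, which by its name covers residues of the B chain of insulin. The genotype and strain were shared by both groups. The sources used here do not give the dose, the route, the duration of exposure, the age of the animals, or whether the ligand was given to animals or to islets in culture. Nothing in the labels says whether a library is 1 animal or a pool, so every p-value measures only how far these libraries differ, and that spread may be technical. The family was chosen by measured values, namely the call of Nsun3 between these same libraries, so the differences of the 8 genes between the groups are given as a description and support nothing further.

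NSUN enzymes place a methyl group on carbon 5 of cytosines in RNA, giving 5-methylcytosine. Nsun3 acts inside mitochondria on the wobble base of the anticodon of the methionine tRNA, and Alkbh1, an iron-dependent dioxygenase, oxidises that methyl group to a formyl group. The formylated base lets the tRNA read AUA as well as AUG codons as methionine, which mitochondrial translation needs. Other family members have other targets: Nsun4 acts on the small mitochondrial ribosomal RNA, and Nsun2 and Nsun6 on tRNAs and some messenger RNAs. Nop2 and Nsun5 act on the large cytosolic ribosomal RNA. The beta cells of islets rely on mitochondrial ATP production to couple glucose to insulin release.

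The shared target of Nsun3 and Alkbh1 is shown because the comparison of both enzymes turns on it. In GENCODE M21 (GRCm38) the methionine tRNA gene mt-Tm lies at chrM:3845-3913 on the plus strand and is 69 bases long. Capitals mark the anticodon, bases 31 to 33 counted from 1 at the 5′ end of the gene, whose first base, the C, is the one that Nsun3 methylates and Alkbh1 oxidises.
mt-Tm: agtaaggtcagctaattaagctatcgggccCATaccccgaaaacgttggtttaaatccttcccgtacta

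Total counts per library lay between 52052808 and 58880189. All 8 genes passed the filter on low counts and entered the test of 17016 genes. Levels are in CPM, counts scaled to a common library size after TMM scaling (which allows for libraries of different composition), and means are given ± SD over n = 3 libraries. Of the hormone genes of islets, Ins2 was at 65000 ± 5550 CPM in the vehicle and 70000 ± 7060 CPM in the insB:9-23 group, and Gcg at 20900 ± 1680 and 19900 ± 2770 CPM. Of 11 tested beta cell markers 3, Ins2 among them, had a log2 fold (insB:9-23 minus vehicle) above 0. The median of the 11 was -0.12, beside 0.01 over all tested genes, and the test called 0 of them. In Slc2a2, Slc30a8, Ucn3, G6pc2 and Glp1r every insB:9-23 library lay below every vehicle library, as for 7.12% of all genes tested. The ranges of the other tested beta cell markers overlapped. Mafa, a beta cell factor with a single block of exon, had 0 counts in every library. Many genes with a single block of exon were at 0 in some libraries and not in others, so this 0 may come from the counting and is not read as absence. Acinar markers, which stem from exocrine tissue, took 16.3% to 19.0% of counts in the vehicle and 18% to 27.5% in the insB:9-23 libraries. The 27.5% was that of insB:9-23 replicate 3, and the 18% of insB:9-23 replicate 2 lay inside the vehicle range. Of the 26 acinar markers 25 had a fold above 0, beside 8755 of all 17016 tested genes. None was at 0 in all libraries, and edgeR, DESeq2 and limma-voom called 0 of the 26. B and plasma cell markers took 0.00236% to 0.00446% of counts in the vehicle and 0.000879% to 0.0161% in the insB:9-23 libraries. The 0.0161% was that of insB:9-23 replicate 2, where all 7 of these markers were highest. T and NK cell markers took 0.000202% to 0.000338% in the vehicle and 0.000109% to 0.00159% in the insB:9-23 libraries, again highest in insB:9-23 replicate 2.

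Nsun3 (ENSMUSG00000050312) lies on chromosome 16 (62732444 to 62786818, minus strand) with 8 blocks of exon. It was counted 719, 776 and 618 times in vehicle libraries 1 to 3, numbered by replicate, and 189, 187 and 161 times in insB:9-23 libraries 1 to 3. In CPM these were 11.4, 12.4 and 11.6 against 3.23, 3.33 and 3.52. Every insB:9-23 library was below every vehicle library, a separation that the choice of Nsun3 by its call favours. The mean was 11.8 ± 0.56 CPM in the vehicle and 3.36 ± 0.148 CPM in the insB:9-23 group, which is 28.4% of the vehicle mean. The edgeR log2 fold was -1.81 ± 0.12 (SE). In islet tissue a lower level may come from fewer cells that express the gene or from less RNA per cell, and these cannot be told apart in bulk libraries.

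Replicates of Nsun3 were close to each other. The SD of its log2 CPM inside groups was 0.065, and counting error alone would give about 0.086 at these counts. Genes of like level, within 0.5 log2 CPM of Nsun3, had a median SD of 0.260. A gene picked for its call is likely to have a small spread inside groups, so nothing is read from the SD of Nsun3. Among the family Nsun2 came nearest to Nsun3, with an SD of 0.081, while Nsun6 had 0.459 and Nsun7, the gene with the fewest counts, had 0.746.

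**Figure D1:**
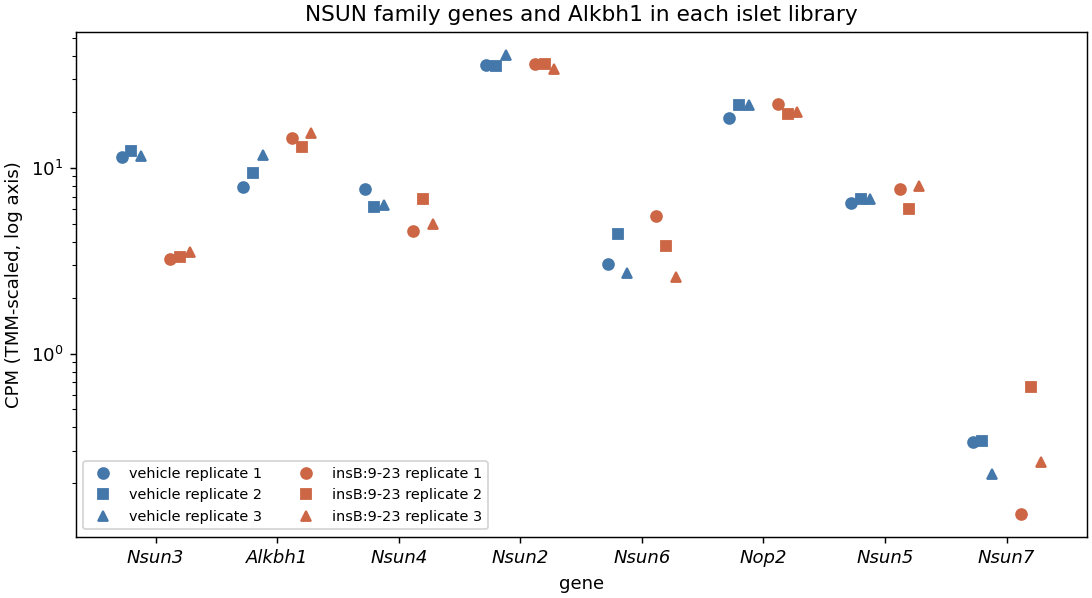
Level of each gene in CPM (log axis) in the 6 libraries, blue for vehicle and red-orange for insB:9-23, with a marker shape for each replicate number. Nsun3 is at 11.4 to 12.4 CPM in vehicle and 3.23 to 3.52 CPM in insB:9-23 libraries, Alkbh1 is higher in every insB:9-23 library, and the groups of the other 6 genes overlap.

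Of the 8 genes, 1 (Nsun3, lower) passed the edgeR quasi-likelihood test at an adjusted p below 0.05, against 0.0823% of all genes tested, 0.0294% higher and 0.0529% lower. DESeq2 and limma-voom called the same 1 gene, against 0.685% and 0.0999% of all genes. Because that call led to the choice of the family, nothing is read from the count. The call was lost without vehicle replicate 2 (edgeR adjusted p = 0.0615) or 3 (0.0572), without insB:9-23 replicate 2 (0.0547) and when acinar marker level was added to the model (0.105), while the log2 fold stayed between -1.86 and -1.77 in these. The acinar shares of insB:9-23 libraries 1 to 3 were 20.4%, 18% and 27.5%, beside Nsun3 at 3.23, 3.33 and 3.52 CPM, and their part in the difference was not tested. The groups did not overlap for 2 of the 8 genes, Nsun3 lower and Alkbh1 higher, against 13.5% of all genes tested, 7.12% lower and 6.4% higher.

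Alkbh1, the oxidase that follows Nsun3 on the same base, lay the other way. Alkbh1 (ENSMUSG00000079036) is on chromosome 12 (87425840 to 87444017, minus strand). Its CPM were 7.92, 9.34 and 11.8 in vehicle libraries 1 to 3 and 14.5, 12.9 and 15.5 in insB:9-23 libraries 1 to 3. All insB:9-23 libraries were above all vehicle libraries, although vehicle replicate 3 came close to insB:9-23 replicate 2. The means were 9.69 ± 1.97 and 14.3 ± 1.31 CPM, with a log2 fold of 0.56 ± 0.18 (SE). The edgeR test across all genes did not call it (adjusted p = 0.881, unadjusted p = 0.0193), nor did DESeq2 (adjusted p = 0.366) or limma-voom (adjusted p = 0.804). Its log2 fold lay between 0.40 and 0.73 over 16 other settings, and none of them called it.

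Within each library the level per length of Nsun3 was set against that of Alkbh1, in CPM per kilobase of exon. The ratio was 1.55, 1.44 and 1.06 in vehicle libraries 1 to 3 and 0.241, 0.279 and 0.246 in insB:9-23 libraries 1 to 3. Nsun3 was thus above Alkbh1 in each vehicle library and below it in each insB:9-23 library on this length. With the longest annotated transcript as length the ratio in vehicle replicate 3 was 0.992, so the order there turned, and the other vehicle ratios were 1.45 and 1.35. The insB:9-23 ratios were then 0.226 to 0.261. The mean ratio was 1.35 ± 0.258 in the vehicle and 0.255 ± 0.0207 in the insB:9-23 group. No test was drawn from the ratio, since Nsun3 was chosen for its change.

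**Figure D2:**
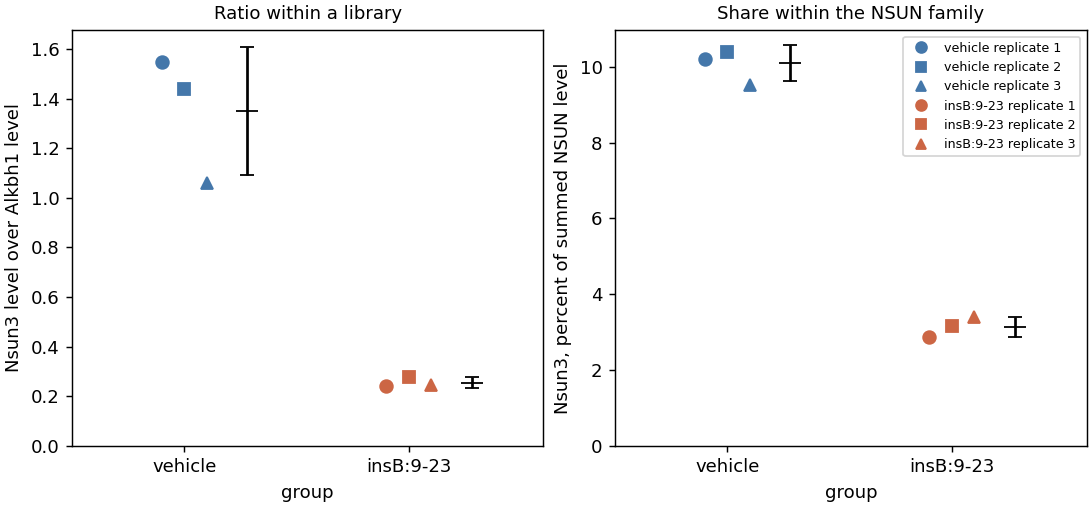
Left, Nsun3 over Alkbh1 (levels per length) in each library by group; right, Nsun3 as percent of the summed level of the 7 NSUN genes; markers are replicates, bars the mean ± SD (n = 3). The ratio is 1.06 to 1.55 in vehicle and 0.241 to 0.279 in insB:9-23 libraries.

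Nsun4 (chromosome 4, 116032842 to 116053876, minus strand), also a mitochondrial methyltransferase, pairs with Mterf4 on the mitochondrial ribosome. Its CPM were 7.68, 6.15 and 6.31 in vehicle libraries 1 to 3 and 4.58, 6.76 and 5 in insB:9-23 libraries 1 to 3. In insB:9-23, replicates 1 and 3 lay below the vehicle range and replicate 2 lay inside it. The log2 fold was -0.30 ± 0.20 (SE; edgeR adjusted p = 0.889). Mterf4, its partner, was at 4.80 ± 0.678 and 5.64 ± 0.754 CPM (log2 fold 0.23 ± 0.18, SE; edgeR adjusted p = 0.897).

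Nsun2 (chromosome 13, 69533746 to 69635780, plus strand), which methylates many tRNAs, had the most counts of the 8 genes. It was at 36.0, 35.5 and 40.5 CPM in vehicle libraries 1 to 3 and 36.3, 36.4 and 34.3 CPM in insB:9-23 libraries 1 to 3, and the groups overlapped. Its log2 fold was -0.07 ± 0.08 (SE; edgeR adjusted p = 0.932). Nsun6 (chromosome 2, 14995131 to 15055069, minus strand), which methylates the acceptor end of certain tRNAs, varied more between libraries, with 3.02, 4.39 and 2.72 CPM in vehicle and 5.53, 3.81 and 2.60 CPM in insB:9-23 libraries 1 to 3. The highest and the lowest value of Nsun6 both came from insB:9-23 libraries, and its log2 fold was 0.24 ± 0.34 (SE; edgeR adjusted p = 0.938).

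Nop2 (chromosome 6, 125131909 to 125144753, plus strand), a nucleolar protein needed for the large ribosomal subunit, was at 20.7 ± 1.83 and 20.6 ± 1.41 CPM, with a log2 fold of -0.01 ± 0.11 (SE; edgeR adjusted p = 0.994). Nsun5 (chromosome 5, 135369953 to 135376805, plus strand), which modifies the same ribosomal RNA, was at 6.69 ± 0.201 and 7.23 ± 1.06 CPM (log2 fold 0.11 ± 0.16, SE; edgeR adjusted p = 0.936). Both genes had overlapping groups. Nsun7 (chromosome 5, 66259897 to 66298026, plus strand), a member whose activity is less well described, had 21, 21 and 12 counts in vehicle and 8, 37 and 12 counts in insB:9-23 libraries 1 to 3. That is 0.225 to 0.337 CPM against 0.137 to 0.658 CPM, with the widest error of the 8 genes (log2 fold 0.24 ± 0.68, SE; edgeR adjusted p = 0.972). The signs of the Nop2, Nsun5, Nsun6 and Nsun7 folds were not the same in every one of the settings tried, so no direction is given for these genes.

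**Figure D3:**
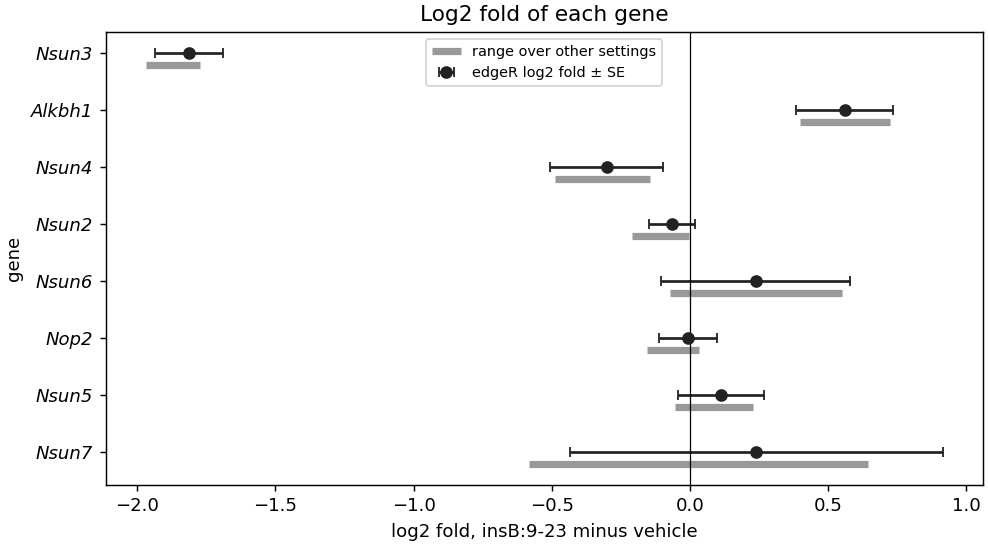
Log2 fold of each gene, insB:9-23 minus vehicle, from edgeR (black points, bars ± SE), with the range over the other settings as a grey bar. Nsun3 stands at -1.81 and Alkbh1 at 0.56, while the other 6 genes lie between -0.30 and 0.24.

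Levels of different genes were compared per length. In the vehicle group Nop2 was at 7.46 ± 0.662 CPM per kilobase of exon and Nsun2 at 6.51 ± 0.478, and their ranges overlapped. Nsun3 came next, at 1.94 ± 0.0921 CPM per kilobase, below every Nsun2 value and, on this length, above every Nsun5 value. Nsun5 (1.55 ± 0.0466), Alkbh1 (1.47 ± 0.299) and Nsun4 (1.12 ± 0.140) followed, where each neighbour overlapped the next. Nsun6, at 0.675 ± 0.178, lay below these, and Nsun7, at 0.0553 ± 0.0118 CPM per kilobase, was the lowest.

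In the insB:9-23 group the level per length of Nsun3 was 0.552 ± 0.0243 CPM per kilobase, which placed it at rank 7 of the 8 genes, above Nsun7 alone and overlapping with Nsun6 (0.795 ± 0.294). Alkbh1, at 2.17 ± 0.199, took the place after Nop2 and Nsun2. Nsun3 supplied 10.2%, 10.4% and 9.51% of the summed NSUN level per length in vehicle libraries 1 to 3 and 2.86%, 3.15% and 3.39% in insB:9-23 libraries 1 to 3. The summed NSUN level itself was 19.3 ± 0.901 and 17.6 ± 0.797 CPM per kilobase. When the longest annotated transcript was used as the length, Nsun2 and Nop2 changed places and the other 6 ranks of the means were as before in both groups. The vehicle values of Nsun3 were then 2.99, 3.26 and 3.04 and those of Nsun5 2.88, 3.02 and 3.05 CPM per kilobase, which overlapped. Whether Nsun3 lies apart from Nsun5 in vehicle therefore depends on the length used. In insB:9-23 Alkbh1 and Nsun5 overlapped on the length of the longest transcript, but not per kilobase of exon.

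**Figure D4:**
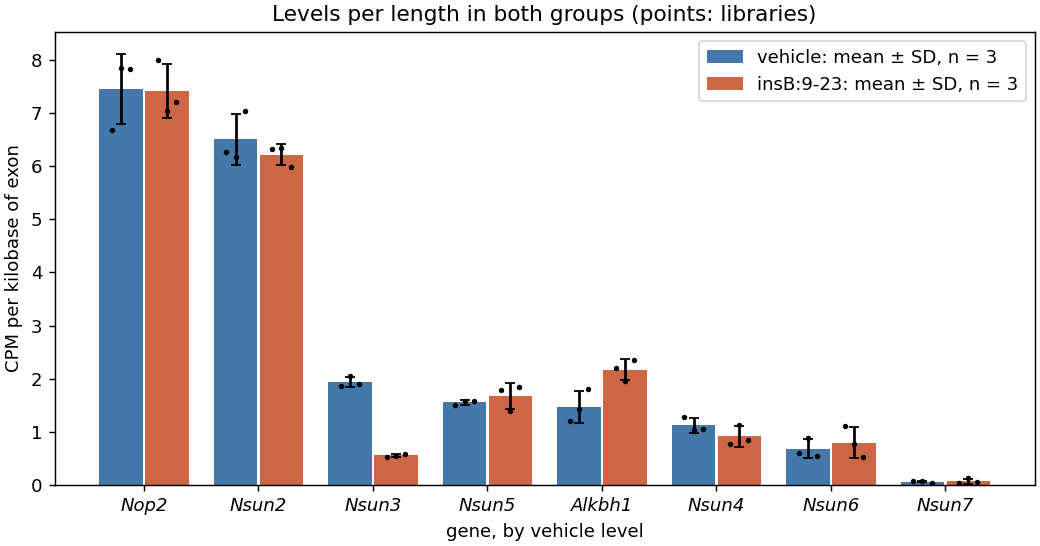
Level per length (CPM per kilobase of exon) of the 8 genes in both groups, ordered by the vehicle mean; bars are means ± SD (n = 3) and points are libraries. Nsun3 stands at 1.94 in vehicle and 0.552 in insB:9-23, and Alkbh1 at 1.47 and 2.17.

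Positions in the genome were compared because overlapping genes can share reads. The protein-coding gene nearest to Nsun3 on the side of its start, 6866 bases away on the same strand, is Arl13b, a small GTPase of cilia. Arl13b was at 16.6 CPM in vehicle and 13.9 CPM in insB:9-23, with overlapping groups (log2 fold -0.26 ± 0.24, SE; edgeR adjusted p = 0.906). Epha6, the nearest on the other side at 2126912 bases, had 0 counts in all libraries. No annotated gene overlaps Nsun3, and no transcript of another gene matched its longest coding transcript over 100 bases or more at 90% identity or more.

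The 5′ end of Alkbh1 overlaps that of Slirp, which encodes a partner of Lrpprc in stabilising mitochondrial messenger RNAs. The genes lie on opposite strands and share 122 bases of exon. No source used here gives the strand setting of the counting, so reads from the shared bases may belong to either gene. Slirp was at 9.80, 9.76 and 14.1 CPM in vehicle libraries 1 to 3 and 11.6, 10.1 and 10.2 CPM in insB:9-23 libraries 1 to 3. Its groups overlapped, and its log2 fold was -0.08 ± 0.18 (SE; edgeR adjusted p = 0.968). Nsun5 shares 665 bases of exon with Pom121, and Nsun2 shares 165 with Tent4a and 469 with Gm17108, all on the opposite strand. Pom121 was at 61.3 and 56.8 CPM and Tent4a at 20.3 and 23.3 CPM in vehicle and insB:9-23 (edgeR adjusted p = 0.924 and 0.881). The counts of Nsun5 and Nsun2 are uncertain to that extent.

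Promoters are shown because the rule that picked these genes did not use them. RefSeq (GRCm38.p6) gave 9 promoters for 7 of the 8 genes, and none was printed or searched for Nsun5. The 250 bases before each start were searched on both strands for CCGGAAG, which holds the GGAA core known to be bound by ETS factors such as GABP, and for TCTCGCGAGA, the longest stretch of the Nsun3 promoter that equals its own reverse complement. Both motifs were picked after the promoters had been read. CCGGAAG was found for 4 of the 7 genes (Nsun3, Nsun6, Nop2 and Alkbh1). It is present in 6.91% of 32851 promoters or, counted by gene, in 2115 of 27025 genes. TCTCGCGAGA was found for Nsun3 and is present in 0.39% of those promoters, or in 121 of the 27025 genes. The matches (capitals) and the bases around them are given 5′ to 3′ on the strand of the gene, first for Nsun3, at chr16:62786747-62786769 and chr16:62786804-62786827 (minus strand), then for Alkbh1 at chr12:87443877-87443899 (minus), Nop2 at chr6:125131837-125131859 (plus) and 1 of the 2 promoters of Nsun6 at chr2:15049317-15049339 (minus). Distances are counted from the RefSeq starts, which are not the 5′ ends of the GENCODE genes given above. The RefSeq start lies 102 bases inside the GENCODE gene for Nsun3, 178 for Alkbh1 and 5757 for this promoter of Nsun6, so their windows lie wholly or in part within those genes. Alkbh1 holds the reverse complement CTTCCGG as well, 15 bases before its start.
Nsun3, 45 bases before its start: cgcaggacCCGGAAGtatggcgt
Nsun3, 104 bases before its start: tctacaaTCTCGCGAGAccggaaa
Alkbh1, 52 bases before its start: tcgtgaccCCGGAAGaacctgcc
Nop2, 38 bases before its start: tgccgcggCCGGAAGaggcgggg
Nsun6, 19 bases before 1 of its 2 starts: atcgagtgCCGGAAGtgacgaac

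In these windows Nsun3, Alkbh1, Nop2 and Nsun6 hold CCGGAAG, as do 2115 of 27025 genes. The motif was picked after the promoters had been read, so nothing is read from this match. Over all tested genes with a RefSeq promoter, 1694 held CCGGAAG, with a median log2 fold of -0.01, and 101 held TCTCGCGAGA, with a median of -0.03. The median over all 12225 such genes was 0.01. A match is a description of the letters in the window only, and the part of either motif in any difference was not tested.

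The other enzymes of mitochondrial tRNA were then set beside Nsun3. Of 19 genes for the modification and processing of mitochondrial tRNA, 0 passed the edgeR test in either direction. At an unadjusted p below 0.05 there was 1, against 5.55% of all genes, and DESeq2 and limma-voom called 0. The median log2 fold was 0.04, beside 0.01 over all tested genes. The 1 gene, Qtrt1, a subunit of the enzyme that inserts queuine into tRNA anticodons, was at 10.8 ± 0.188 and 14.2 ± 1.54 CPM (log2 fold 0.39 ± 0.12, SE; edgeR adjusted p = 0.881). Hsd17b10, a subunit of mitochondrial RNase P, was at 15.5 ± 2.01 and 18.4 ± 0.418 CPM, and Trit1, which isopentenylates tRNA, at 10.3 ± 0.42 and 11.7 ± 1.20 CPM (each edgeR adjusted p = 0.881).

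A mixed list around mitochondrial methionine came next. It held Mars2 and Mtfmt, which charge the tRNA and formylate its methionine, the initiation factors Mtif2 and Mtif3, Pdf and Metap1d, which trim the start of the finished peptide, and Slirp and Lrpprc, which bind messenger RNAs. Of these 8 genes the edgeR test called 0, and 1 had an unadjusted p below 0.05, against 5.55% of all genes. DESeq2 and limma-voom called 0. The median log2 fold was -0.05. The 1 gene was Mtfmt, which formylates the methionine carried by this tRNA, at 7.87, 6.28 and 6.26 CPM in vehicle, with 8.11, 9.30 and 9.72 CPM in insB:9-23 libraries 1 to 3. Its groups did not overlap, as for 13.5% of all genes, though vehicle replicate 1 was close to insB:9-23 replicate 1 (log2 fold 0.41 ± 0.15, SE; edgeR adjusted p = 0.881). Mars2, the mitochondrial methionyl-tRNA synthetase, was listed at 0 CPM in vehicle replicate 1 and insB:9-23 replicate 1 and at 6.03 to 8.64 CPM in the other 4 libraries. Lrpprc, a stabiliser of mitochondrial messenger RNAs, was at 69.0 ± 1.43 and 65.0 ± 3.67 CPM (edgeR adjusted p = 0.897).

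On the side of the mitochondrial ribosome, 0 of 13 genes for ribosomal RNA modification and assembly passed the edgeR test, 0 had an unadjusted p below 0.05, and DESeq2 and limma-voom called 0. Their median log2 fold was 0.01. Of 78 mitochondrial ribosomal protein genes the edgeR test called 0, 1 had an unadjusted p below 0.05 (against 5.55% of all genes), limma-voom called 0 and DESeq2 called 1. That gene was Mrpl14, of the large subunit, at 8.80, 7.50 and 8.75 CPM in vehicle, with 3.14, 5.35 and 3.39 CPM in insB:9-23 libraries 1 to 3 (log2 fold -1.08 ± 0.24, SE; edgeR adjusted p = 0.803, DESeq2 adjusted p = 0.0201, where DESeq2 called 0.685% of all genes). The median log2 fold over the 78 genes was 0.02.

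Among the AlkB relatives of Alkbh1, 0 of 8 passed the edgeR test, and DESeq2 and limma-voom called 0. At an unadjusted p below 0.05 there was 1, against 5.55% of all genes. The median log2 fold was 0.03. The 1 gene was Alkbh7, a mitochondrial member linked to programmed necrosis, at 2.98, 2.32 and 4.48 CPM in vehicle, with 6.78, 6.08 and 7.08 CPM in insB:9-23 libraries 1 to 3. Its groups did not overlap, as for 13.5% of all genes (log2 fold 1.03 ± 0.27, SE; edgeR adjusted p = 0.881, DESeq2 adjusted p = 0.0891). Alkbh4 was at 2.42 ± 1.22 and 4.48 ± 0.711 CPM (edgeR adjusted p = 0.881). Alkbh5 and Fto, which remove methyl groups from adenosines in RNA and were picked after their values were seen, were at 95.3 ± 2.66 and 98.5 ± 7.07 CPM, and at 46.3 ± 2.21 and 46.7 ± 4.51 CPM (edgeR adjusted p = 0.942 and 0.992).

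Other enzymes that act on cytosine gave no call. Of the 7 DNA and RNA cytosine methyltransferases and TET oxidases the edgeR test called 0, 0 had an unadjusted p below 0.05, and DESeq2 and limma-voom called 0, with a median log2 fold of -0.03. Trdmt1, a further enzyme that makes 5-methylcytosine in tRNA, was at 5 ± 0.803 and 4.62 ± 1.13 CPM (edgeR adjusted p = 0.959). The readers of 5-methylcytosine in RNA, Alyref and Ybx1, were at 13.4 ± 0.996 and 11 ± 1.12 CPM, and at 115 ± 18.1 and 121 ± 7.52 CPM (edgeR adjusted p = 0.881 and 0.945).

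Of 30 tested genes for cytosolic tRNA modification 0 passed the edgeR test, 0 had an unadjusted p below 0.05, and DESeq2 and limma-voom called 0, with a median log2 fold of -0.01. Cdkal1, a tRNA methylthiotransferase gene known as a type 2 diabetes locus, was at 9.08 ± 1.30 and 9.10 ± 0.560 CPM (edgeR adjusted p = 0.997). Trmt10a, whose loss in people causes early diabetes, was at 5.64 ± 1.6 and 5.61 ± 0.529 CPM (edgeR adjusted p = 0.997). Of 23 nucleolar genes, the setting in which Nop2 works, 0 passed the edgeR test, and DESeq2 and limma-voom called 0. At an unadjusted p below 0.05, 2 of the 23 were lower, beside 478 lower of all 17016 tested genes. The 2 nucleolar genes were Mybbp1a, at 88.6 ± 6.01 and 75.7 ± 0.476 CPM, and Ddx21, at 55.7 ± 1.93 and 43.2 ± 7.98 CPM (each edgeR adjusted p = 0.881).

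**Figure D5:**
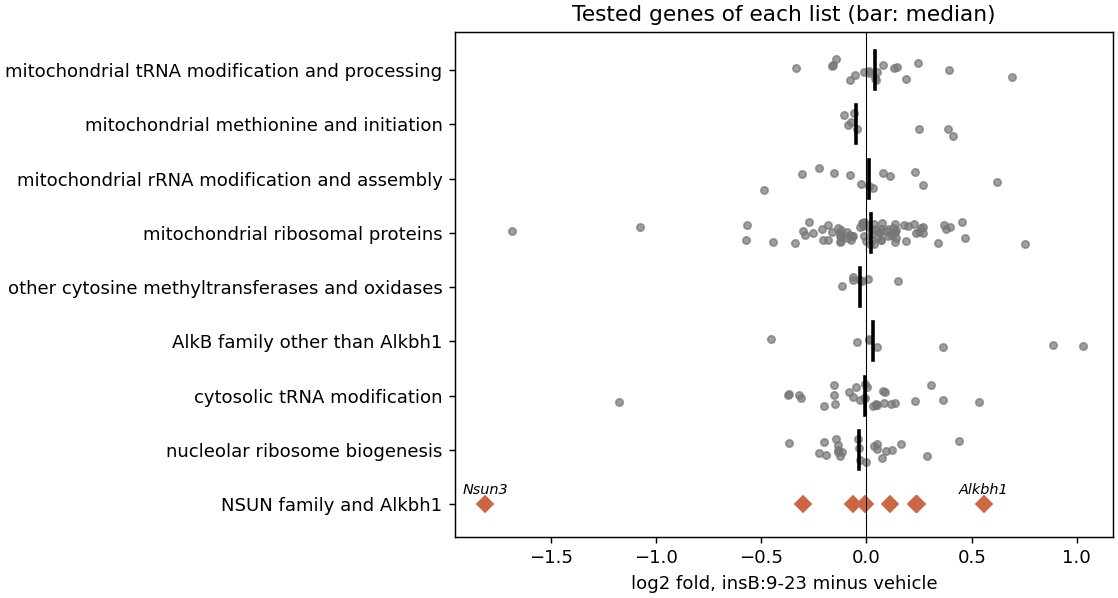
Log2 folds (insB:9-23 minus vehicle) of the tested genes of 8 lists (grey points, spread vertically for sight only; black bar, median) and of the NSUN genes with Alkbh1 (red-orange diamonds). List medians lie between -0.05 and 0.04, and Nsun3 is at -1.81.

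The genes whose values over the 6 libraries most resembled those of Nsun3 were found by the root mean square difference of log2 CPM, each gene centred on its own mean, among 12587 genes. Nearest were Sort1, the sorting receptor sortilin (0.206), Uqcrfs1, the iron-sulphur subunit of complex III (0.225), Rprd1b (0.260), Lgalsl (0.284) and Arl6ip6 (0.324). Rprd1b was at 54.9 CPM in vehicle and 20.1 CPM in insB:9-23, Lgalsl at 37.0 and 9.44 CPM, and Arl6ip6 at 9.86 and 4.40 CPM. The edgeR test called none of these last 3 (adjusted p = 0.144, 0.165 and 0.0827), while DESeq2 called all 3 (adjusted p = 1.19e-09, 4.92e-10 and 1.02e-12). Both edgeR and DESeq2 called Sort1 and Uqcrfs1. Over all tested genes edgeR called 0.0823% and DESeq2 0.685%. In the order of likeness Nsun4 stood at place 661, Nsun2 at 3797 and Alkbh1 at 11343. Likeness to Nsun3 over these same libraries builds in a lower level in insB:9-23. Nothing is therefore read from these calls or places.

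The target tRNA itself could not be followed. The mt-Tm gene had 2187 counts in vehicle replicate 2 and 1263 in insB:9-23 replicate 3, and 0 counts in the other 4 libraries. Of the 22 mitochondrial tRNA genes, 19 had 0 counts in every library. Counts at 0 in some libraries and high in others were found in both groups, so no comparison was made. A mix of 0 counts in some library with 5 CPM or more elsewhere was found for 258 genes, 202 of them with a single block of exon, and 0 of the 8 NSUN and Alkbh1 genes were among them.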

How the data were processed

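RNA of 6 islet samples was sequenced from libraries made with a stranded kit, per the labels' protocols. For each library the authors deposited a table of unnormalised counts by Ensembl gene ID, per the file headers. HISAT, featureCounts 1.5.0-p3, DESeq 1.8.3 and GRCm38 are named, without roles, in the submitters' processing notes. Annotation release and strand setting: not given in the sources used here. Groups and replicate numbers came from the titles. Symbols were found for 55154 of 55421 IDs in GENCODE M21 (GRCm38).

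The main test was edgeR 4.0.16 under R 4.3.3 (filterByExpr, TMM, robust quasi-likelihood F test, Benjamini-Hochberg over 17016 genes, threshold 0.05). The SE of a log2 fold is the fold over the root of F. Copies were sought with blastn 2.17.0. Alternatives were other scalings, DESeq2 1.42.0, limma-voom 3.58.1, other filters, protein-coding genes only, a replicate block, an acinar covariate and each library left out. The members, lists and tests were chosen with earlier results of these data known. Genes named by rule are the members, their neighbours, up to 3 of each list by p, 9 fixed genes and the 5 most like Nsun3. Likeness was ranked among genes with a mean of at least 1 CPM and no predicted-gene or clone name. A prior count of 2 was used on the log scale. Other genes were named outside this rule, among them Ins2, Gcg, Mafa, Alkbh5, Fto and mt-Nd1. On counts simulated for this comparison (16488 genes tested), edgeR found 66 of the 100 genes given a 4-fold change, 15 of the 100 given a 2-fold change, and 6 unchanged genes among its 87 calls. Replicates of 1 group differed by a chi-square of 80 to 247 per degree of freedom, so none was a repeat deposit.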

Additional observations from a re-analysis of the deposited data

How the results depend on the processing

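The log2 fold of Nsun3 was -1.81 and lay between -1.97 and -1.77 over 16 alternatives, negative in all of them. Library totals alone gave -1.97, where the median of all genes was -0.15. With 1 library left out in turn, the fold lay between -1.85 and -1.77, and the number of members called between 0 and 1. The count of genes called over the whole table was 14. It was 116 with DESeq2 (55 higher, 61 lower), 7 when acinar marker level was added to the model (members called 0) and 13 to 18 under the other scalings, limma-voom, other filters and protein-coding genes only. With 1 library left out it lay between 16 and 26. It was 23 without vehicle replicate 1, 25 without insB:9-23 replicate 1 and 26 without insB:9-23 replicate 3. Libraries of the same replicate number did not deviate together over all genes (correlations -0.035, -0.064 and -0.025). Whether the numbers mark a shared batch with a small effect was not tested. With the replicate block edgeR called 0 genes, with 605 at an unadjusted p below 0.05, and 0 members, 2 of them at an unadjusted p below 0.05; the log2 fold of Nsun3 was -1.81 (adjusted p = 0.364). With the longest transcript as length the vehicle level of Nsun3 was 3.09 in place of 1.94 CPM per kilobase. A count of 3 corresponds to 0.0475 to 0.0655 CPM, which limits statements on Nsun7.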

Other observations

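Of the 13 protein genes of the mitochondrial genome, 8 had 0 counts in all libraries. The mt-Cytb gene had 1, 1 and 225968 counts in vehicle libraries 1 to 3 and 0, 219738 and 168978 in insB:9-23 libraries 1 to 3. The mt-Nd1 gene had 3158 counts in vehicle replicate 2 and 2431 in insB:9-23 replicate 3, and 0 in the others, the same libraries in which mt-Tm was counted. The mt-Co1 gene had 16, 756 and 8 counts in vehicle and 414, 14 and 332 counts in insB:9-23 libraries 1 to 3. These values are given without a comparison between the groups.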
